A study of Mus musculus with 12 samples.

Results

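The levels of 10 imprinted genes (*Nnat*, *Peg3*, *Igf2*, *H19*, *Meg3*, *Dlk1*, *Cdkn1c*, *Plagl1*, *Grb10* and *Mest*) were followed in the lens. They were found by gene symbol among the 55487 gene identifiers of the count table, and each symbol matched a single identifier. Imprinted genes are expressed mainly from the chromosome inherited from one parent, because DNA methylation laid down in the egg or sperm silences the other copy. Many of them set the growth of the embryo, with paternally expressed members such as the growth factor gene *Igf2* acting for growth and maternally expressed members such as the cell-cycle inhibitor gene *Cdkn1c* acting against it. Several sit in clusters that share a control region, and their RNA usually declines in tissues after birth.

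The lenses came from mice at P7 (an age of 7 days), all kept on the B6J background, in 12 RNA-sequencing libraries with 3 libraries for each of 4 genotypes. WT mice carried no targeted allele. *Trpm3*-I/M mice (heterozygotes) were edited with CRISPR/Cas9 so that 1 copy of the gene for the TRPM3 cation channel encodes p.I65M, and in *Trpm3*-M/M mice (homozygotes) both copies do. These 2 genotypes are called the mutants. *Trpm3*-KO mice (knockouts) carried a *Trpm3* gene targeted by homologous recombination. The alleles were therefore present in every tissue and not in the lens alone. Each library was stated to pool 4 male and 4 female lenses, so a value is a mean over animals, and with mice of a single inbred background the parental copies of an imprinted gene could not be told apart.

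Reads counted on genes ranged from 56162182 to 82090262 per library. Levels are given as CPM, the count scaled to library size, with TMM factors. *Trpm3*, the targeted gene, stood at 268.5 ± 17.3 CPM (SD, n = 3) in WT and 95.3 ± 5.02 CPM in knockout libraries, and it was not lower in heterozygotes (386.6 ± 23.4 CPM) or homozygotes (475.2 ± 8.02 CPM). The library labelled *Trpm3*-I/M replicate 3 held 0.0721 CPM of *Xist*, the RNA of the inactive X chromosome, against 45.8 to 304.9 CPM in the other 11, so the stated mix of sexes is in doubt for it. Without that library the members called changed in heterozygotes were the same 4. Lens fiber markers (8 genes) summed to 32850 to 35110 CPM in WT, 32350 to 33840 in knockouts, 27560 to 29450 in heterozygotes and 17220 to 19890 in homozygotes, so lens RNA was present in all genotypes. The TMM factors (trimmed mean of log ratios) centre the bulk of genes on no change. When libraries were scaled by size alone, the median of all genes shifted to a log2 fold change of 0.50 for homozygotes and 0.2 for heterozygotes, so every change is relative to that bulk.

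The sequences just before the start sites of *Nnat*, *Peg3* and *Plagl1* are shown because these genes made the largest fall, the parallel rise in both mutants and a rise in homozygotes, respectively, and because CG pairs (in capitals) are the sites at which imprinted promoters are methylated. Each is 250 bases, written 5′ to 3′ along the gene (RefSeq, GRCm38.p6).
*Nnat*, chr2:157559828-157560077, forward strand: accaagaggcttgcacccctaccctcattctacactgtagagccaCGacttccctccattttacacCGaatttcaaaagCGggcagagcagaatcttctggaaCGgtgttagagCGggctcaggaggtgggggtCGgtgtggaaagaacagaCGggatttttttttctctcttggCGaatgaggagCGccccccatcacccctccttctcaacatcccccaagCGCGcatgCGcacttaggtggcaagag
*Peg3*, chr7:6730420-6730669, reverse strand: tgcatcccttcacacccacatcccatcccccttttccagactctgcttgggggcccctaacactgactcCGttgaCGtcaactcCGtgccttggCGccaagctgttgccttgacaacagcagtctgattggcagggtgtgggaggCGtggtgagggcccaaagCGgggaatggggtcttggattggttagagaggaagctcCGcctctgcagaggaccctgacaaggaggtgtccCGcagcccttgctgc
*Plagl1*, chr10:13090582-13090831, forward strand: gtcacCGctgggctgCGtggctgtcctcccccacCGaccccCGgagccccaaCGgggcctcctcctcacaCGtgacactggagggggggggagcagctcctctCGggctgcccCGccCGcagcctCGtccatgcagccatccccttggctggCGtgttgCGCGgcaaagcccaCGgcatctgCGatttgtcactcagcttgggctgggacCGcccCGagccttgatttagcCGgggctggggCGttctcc
These stretches held 12, 8 and 19 CG pairs, against a median of 6 over 32841 stretches of the same length before RefSeq start sites. The 6-base motif TGCCGC, which the imprint-protecting protein ZFP57 binds when methylated, was searched on both strands. It was found 1 time before *Plagl1*, on the complement and beginning 90 bases before the start, and not in the stretches of *Nnat* or *Peg3*, while 8.68% of all stretches held it. Promoter sequences were matched for 8 of the 10 members, and among the others stretches of *Meg3* and *Mest* also held the motif. No methylation was measured in this series.

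In homozygous lenses *H19*, *Peg3*, *Plagl1* and *Meg3* rose and *Nnat* fell, and in heterozygous lenses *H19* and *Peg3* rose while *Nnat* and *Grb10* fell. In knockout lenses *Igf2* fell. A gene was called at FC ≥ 2 and FDR ≤ 0.05 in edgeR's quasi-likelihood test over 8984 genes. In homozygotes 4 members were called higher and 1 lower, where 8.95% of all tested genes were called, 6.42% higher and 2.53% lower. Heterozygotes had 2 called higher and 2 lower, where 3.33% of all tested genes were called, 2.58% higher and 0.746% lower. Knockouts had 0 called higher and 1 lower, where 0.568% of all tested genes were called, 0.234% higher and 0.334% lower. DESeq2 also called 0 members higher and 1 lower there. In edgeR 4 members had an unadjusted p under 0.05, 2 higher and 2 lower. That count has no share of all tested genes to set it against, so no change is read from it. Between the mutants 3 members (*H19*, *Plagl1* and *Grb10*) were called higher in homozygotes, where 4.7% of all tested genes were called and 3.67% were higher. Of the 10 members, 9 passed the filter of 5 CPM in at least 3 libraries. *Plagl1* passed it only through the homozygous libraries, *Nnat* only through the WT and knockout libraries, and *Dlk1* did not pass. *Plagl1* and *Nnat* were thus tested only because of the groups where they are high, so neither supports the member counts given here. Without the FC threshold, 7 members passed in homozygotes (62.7% of all tested genes), 7 in heterozygotes (32.6%), 1 in knockouts (4.36%) and 5 between the mutants (51.3%). Among the 9 tested members the libraries did not overlap with WT for 7 in homozygotes, 7 in heterozygotes and 5 in knockouts, against 65.2%, 44.6% and 23.2% of all tested genes. Between the mutants 6 did not overlap, against 60.5%. The 3 comparisons share the WT libraries, so they are not independent of each other. The members and the gene lists used below were chosen with earlier results of these data known. Their counts beside the shares of all tested genes are therefore descriptions, not tests. In bulk RNA, fewer cells of a type and less RNA per cell cannot be told apart.

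**Figure D1:**
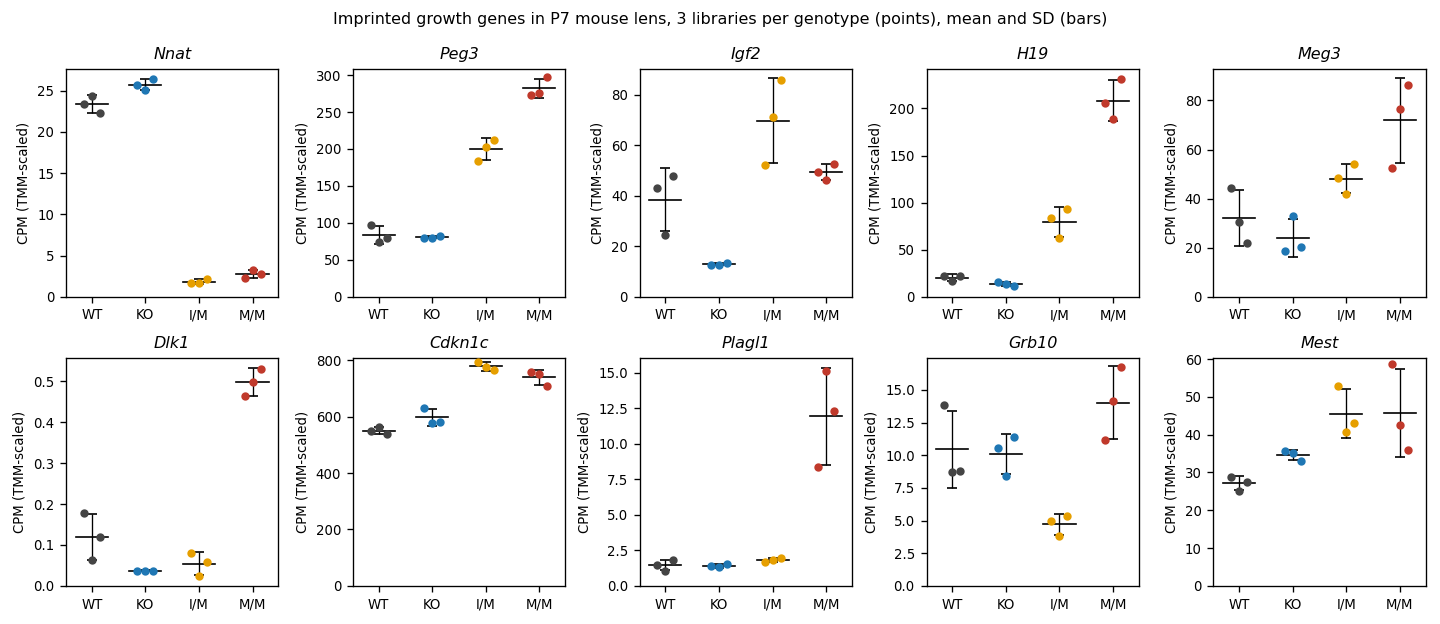
TMM-scaled CPM (vertical axes, from 0) of the 10 imprinted genes in lenses of WT mice, knockouts (*Trpm3*-KO), heterozygotes (*Trpm3*-I/M) and homozygotes (*Trpm3*-M/M); each point is a library and the lines give the mean and SD of 3 libraries. *Nnat* lies between 22.3 and 26.4 CPM in WT and knockouts and between 1.63 and 3.21 CPM in both mutants, whereas *Plagl1* and *Dlk1* are highest in homozygotes.

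*Nnat* encodes neuronatin, a small membrane protein of the endoplasmic reticulum that has been linked to calcium handling through SERCA pumps, and it is transcribed from the paternal copy. The gene (ENSMUSG00000067786) spans 157560078 to 157562522 on chromosome 2 of GRCm38, forward strand, inside an intron of *Blcap*, which runs on the opposite strand. Its level was 23.4, 24.4 and 22.3 CPM in the WT libraries and 25.7, 25.1 and 26.4 CPM in knockouts. In heterozygotes it was 1.63, 1.69 and 2.19 CPM, and in homozygotes 2.26, 3.21 and 2.78 CPM. Every mutant library lay far below every WT and knockout library. The log2 fold change was −3.67 (SE 0.11, 12.8-fold lower, edgeR adjusted p = 1.08e-10) in heterozygotes and −3.08 (SE 0.10, 8.45-fold lower, edgeR adjusted p = 5e-11) in homozygotes. In knockouts it was 0.14 (SE 0.09, edgeR adjusted p = 0.455).

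The heterozygous mutant held less *Nnat* than the homozygous one. Homozygous libraries were 1.51-fold above heterozygous libraries with no overlap (log2 fold change 0.59, SE 0.13, edgeR adjusted p = 0.00176), under the FC threshold of 2. From highest to lowest the order was knockouts, WT, homozygotes and heterozygotes, with the first pair not separated by the test. Per kb of exon, *Nnat* in WT lenses reached 12.8 ± 0.578 CPM per kb, higher than 82.7% of tested genes and exceeded among the members only by *Cdkn1c*. On the same scale the other members in WT followed in the order *H19* (8.22), *Mest* (6.87), *Igf2* (6.72), *Peg3* (6.24), *Meg3* (1.78), *Grb10* (1.15), *Plagl1* (0.186) and *Dlk1* (0.0212). In heterozygous lenses its level per kb exceeded 13% of tested genes.

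The host *Blcap*, whose exons do not overlap those of *Nnat*, did not show the same change. It stood at 13.7 ± 0.694 CPM in WT, 14.1 ± 0.591 in knockouts, 13 ± 0.238 in heterozygotes and 10.3 ± 0.649 in homozygous lenses. Its log2 fold change was −0.07 in heterozygotes (edgeR adjusted p = 0.38) and −0.42 in homozygotes (edgeR adjusted p = 3.58e-05). *Atp2a2*, which encodes the SERCA2 calcium pump of the endoplasmic reticulum, went from 114.8 ± 8.19 CPM in WT to 135.9 ± 4.16 in heterozygotes and 160.5 ± 2.2 in homozygotes (log2 fold changes 0.24 and 0.48, edgeR adjusted p = 0.0027 and 2.51e-06), both under 2-fold. Of the 10 listed SERCA pumps and regulators, *Nnat* among them, 3 were tested. *Nnat* alone was called in each mutant, where 8.95% (homozygotes) and 3.33% (heterozygotes) of all tested genes were called. *Nnat* passed the filter only through the WT and knockout libraries, so that call supports nothing about the list.

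The 3 tested genes whose log2 CPM over the 12 libraries was most like that of *Nnat* were *Prrt4* (Pearson r = 0.994), *Erbb4* (r = 0.99) and *Slc6a15* (r = 0.984). These are descriptive values over libraries that fall into genotypes. *Erbb4*, which encodes a neuregulin receptor, stood at 12 ± 1.48 CPM in WT, 13 ± 1.36 in knockouts, 2.19 ± 0.399 in heterozygotes and 2.58 ± 0.717 in homozygotes. *Prrt4* stood at 32.7 ± 1.02, 33.5 ± 2.52, 6.94 ± 0.212 and 7.81 ± 0.763 CPM in the same order. *Slc6a15*, the gene of an amino acid transporter, stood at 19.2 ± 1.08, 14.9 ± 0.0955, 1.26 ± 0.264 and 1.14 ± 0.201 CPM.

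**Figure D2:**
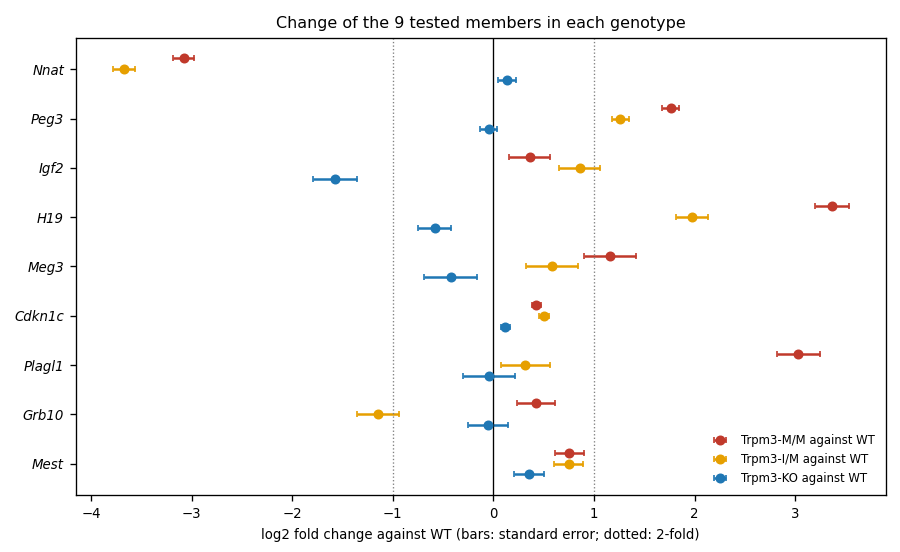
Log2 fold change against WT (horizontal axis) with its standard error for the 9 members that passed the expression filter, in homozygotes, heterozygotes and knockouts; dotted lines mark a 2-fold change. *Nnat* sits at −3.08 and −3.67 in the mutants and 0.14 in knockouts, *H19* at 3.36 and 1.98 in the mutants, and *Igf2* is the member past the dotted line in knockouts, at −1.57.

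*Peg3* encodes a large zinc-finger protein that is transcribed from the paternal copy. It lies on chromosome 7 from 6703892 to 6730431, reverse strand. The WT libraries held 96.8, 73.7 and 78.9 CPM and the knockout libraries 79.98, 79.2 and 82.3 CPM. Heterozygous libraries held 183.6, 202.3 and 212.6 CPM and homozygous libraries 273.6, 275.4 and 297.2 CPM. The mutants stood above WT and above each other in steps without overlap, with log2 fold changes against WT of 1.26 in heterozygotes (SE 0.09, edgeR adjusted p = 1.79e-07) and 1.76 in homozygotes (SE 0.09, edgeR adjusted p = 1.59e-09). Homozygotes exceeded heterozygotes by 0.50 on the log2 scale (edgeR adjusted p = 0.00029). In knockouts the log2 fold change was −0.05 (edgeR adjusted p = 0.835), and 0.08 without WT replicate 1.

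*Zim1* and *Usp29*, which adjoin *Peg3* in its imprinted cluster, were also higher in both mutants. Both passed the expression filter only through mutant libraries, so their tests do not support a rise of the cluster. *Zim1*, a zinc-finger gene on the same strand with 7441 bases between the 2 genes, was of all tested genes the one most like *Peg3* over the 12 libraries (r = 0.998). It stood at 3.6 ± 0.564 CPM in WT, 3.51 ± 0.141 in knockouts, 10.2 ± 0.768 in heterozygotes and 13.6 ± 0.467 in homozygous lenses, with log2 fold changes of 1.5 and 1.92 in the mutants (edgeR adjusted p = 9.69e-08 and 1.41e-09). *Usp29*, a ubiquitin protease gene, runs the other way, with 146 bases between its start and the start of *Peg3*. It stood at 1.88 ± 0.0675, 1.51 ± 0.139, 4.90 ± 0.153 and 5.83 ± 0.234 CPM in the same order. Its log2 fold changes were 1.38 in heterozygotes and 1.63 in homozygotes (edgeR adjusted p = 1.24e-07 and 4.16e-09). *Zim1* is reported as maternally expressed and *Usp29* as paternally expressed, and both rose. The exons of these genes do not overlap. The next genes most like *Peg3* were *Hivep2* and *Adamtsl1* (r = 0.992 for both), which lie in no imprinted list used here.

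**Figure D3:**
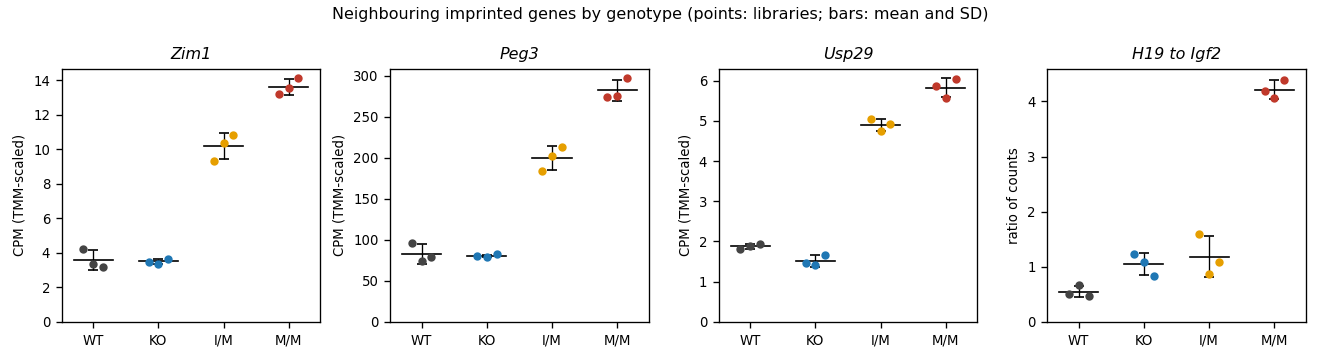
TMM-scaled CPM of *Zim1*, *Peg3* and *Usp29*, which adjoin each other on chromosome 7, and the ratio of *H19* to *Igf2* counts within each library; points are libraries and lines the mean and SD of 3. The 3 neighbours show the same order of genotypes, with homozygotes highest, and the *H19* to *Igf2* ratio is 4.06 to 4.39 in homozygotes against 0.469 to 0.665 in WT.

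*Igf2* and *H19* are a reciprocal pair on chromosome 7, 72622 bases apart, that share enhancers. *Igf2* is read from the paternal copy and *H19*, a noncoding RNA, from the maternal one. *H19* (142575529 to 142578143, reverse strand) stood at 22, 16.2 and 22.5 CPM in WT libraries and 15.5, 13.8 and 11.2 CPM in knockouts. It stood at 83.2, 62.2 and 93.6 CPM in heterozygotes and at 205.7, 188.4 and 231.1 CPM in homozygotes, so both mutants lay above WT and the homozygote above the heterozygote without overlap. *H19* rose by 1.98 on the log2 scale in heterozygotes (SE 0.16, edgeR adjusted p = 9.6e-07) and by 3.36 in homozygotes (SE 0.17, 10.3-fold higher, edgeR adjusted p = 1.77e-09), and the mutants differed by 1.39 (SE 0.15, edgeR adjusted p = 8.44e-06). In knockouts its log2 fold change was −0.58 (SE 0.17, edgeR adjusted p = 0.073), also without overlap.

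*H19* exon sequence contains miR-675, whose mature forms are shown because they are the known small RNA product of this transcript, with the seed (bases 2 to 8) in capitals (RefSeq).
miR-675-5p: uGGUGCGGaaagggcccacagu
miR-675-3p: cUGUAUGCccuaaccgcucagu
The seeds differ, GGUGCGG and UGUAUGC. The libraries were made from polyadenylated RNA and do not measure mature miRNAs, and the *Mir675* entry of the table held 0 counts in all 12 libraries.

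*Igf2* (142650766 to 142666816, reverse strand), the gene of the fetal insulin-like growth factor, showed a different pattern from *H19*. It stood at 43.1, 24.4 and 47.9 CPM in WT libraries, which vary widely, and at 12.6, 12.7 and 13.5 CPM in knockouts, where every library was below every WT library. The fall in knockouts was −1.57 on the log2 scale (SE 0.22, edgeR adjusted p = 0.000652). Heterozygous libraries held 52.1, 71.3 and 85.7 CPM and homozygous libraries 49.2, 46.4 and 52.6 CPM. The log2 fold change was 0.86 in heterozygotes (SE 0.20, edgeR adjusted p = 0.00601), under 2-fold with all 12 libraries. It was 1.04 without WT replicate 3 and 1.03 without heterozygote replicate 1. It was 0.61 without WT replicate 2 and 0.68 without heterozygote replicate 3. In homozygotes it was 0.36 (SE 0.20, edgeR adjusted p = 0.139) with overlapping libraries, and the direct comparison of the mutants gave −0.50 (edgeR adjusted p = 0.0536). Within a library the ratio of *H19* to *Igf2* counts does not depend on scaling. It was 0.548 ± 0.103 in WT, 1.05 ± 0.2 in knockouts, 1.19 ± 0.371 in heterozygotes and 4.21 ± 0.17 in homozygous lenses (SD, n = 3 each), and homozygous libraries did not overlap those of any other genotype.

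*Meg3* and *Dlk1* form another reciprocal pair, on chromosome 12. *Meg3* is a maternally expressed noncoding RNA, and *Dlk1* is the paternally expressed gene of a membrane protein related to Notch ligands. *Meg3* (109541001 to 109571726, forward strand) held 44.3, 30.4 and 21.7 CPM in WT, 18.6, 33.0 and 20.2 in knockouts, 48.6, 42.0 and 54.0 in heterozygotes and 52.7, 76.5 and 86.5 in homozygous libraries. Of the other genotypes, homozygotes alone lay clear of WT. The log2 fold change there was 1.16 (SE 0.26, edgeR adjusted p = 0.00153), and without WT replicate 3 it was 0.94, under the FC threshold. In heterozygotes it was 0.58 (SE 0.26, edgeR adjusted p = 0.105). *Rian*, the maternally expressed noncoding RNA gene that follows *Meg3* after 32213 bases, rose in homozygotes by 1.5 on the log2 scale, from 19.1 ± 4.44 to 54.1 ± 8.32 CPM (edgeR adjusted p = 1.37e-06). It stood at 30.4 ± 3.06 CPM in heterozygotes and 11.4 ± 1.09 in knockouts (log2 fold changes 0.67 and −0.74, edgeR adjusted p = 0.00411 and 0.0164), both under 2-fold.

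*Dlk1* (109452823 to 109463336, forward strand) was scarcely detected and was not tested. Its libraries held 3 to 9 counts in WT, 2 counts each in knockouts, 2 to 6 in heterozygotes and 37 to 47 in homozygotes, which is 18, 6, 12 and 130 counts in all. The level in homozygotes, 0.497 ± 0.0339 CPM, lay above every other library. In a fit with no filter on low counts its log2 fold change against WT was 2.02 in homozygotes (SE 0.44, edgeR adjusted p = 3.58e-05), and in heterozygotes −1.12 (SE 0.59, edgeR adjusted p = 0.275). For *Igf2* in homozygotes that fit gave an edgeR adjusted p = 4.72e-07, against 0.139 with the filter. The SEs and p-values of the unfiltered fit are therefore not comparable with the others given here. Among the 10 listed relatives of *Dlk1*, the Notch ligands and receptors and *Dlk2*, 5 were tested. In homozygotes *Jag2* was called higher and *Notch3* lower, where 8.95% of all tested genes were called, 6.42% higher and 2.53% lower. *Jag2* passed the filter only through the homozygous libraries, so its call does not support the count. *Jag2* stood at 3.19 ± 0.496 CPM in WT against 10.4 ± 0.898 in homozygotes, and *Notch3* at 21.4 ± 2.83 CPM against 10.3 ± 0.988.

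*Plagl1* encodes a zinc-finger transcription factor, transcribed from the paternal copy, that is known to act on other imprinted genes including *Igf2*, *H19* and *Cdkn1c*. The gene lies on chromosome 10 from 13060504 to 13131694, forward strand. It held 1.49, 1.07 and 1.80 CPM in WT, 1.40, 1.30 and 1.56 in knockouts and 1.70, 1.82 and 1.95 in heterozygous libraries. In homozygous libraries it held 8.36, 15.1 and 12.4 CPM, above all others. Against WT the log2 fold change was 3.03 in homozygotes (SE 0.22, 8.18-fold higher, edgeR adjusted p = 5.3e-08) and 2.71 against heterozygotes (SE 0.20, edgeR adjusted p = 2.01e-07). For heterozygotes against WT it was 0.32 (SE 0.24, edgeR adjusted p = 0.347). Since *Plagl1* passed the filter through the homozygous libraries alone, it is not tested when any of them is left out.

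*Grb10* encodes an adaptor that dampens signalling from the insulin and IGF receptors and is transcribed from the maternal copy in most tissues (chromosome 11, 11930508 to 12038683, reverse strand). Its level in the mutants lay on either side of the WT mean, with 13.8, 8.72 and 8.76 CPM in WT, 10.5, 8.39 and 11.4 in knockouts, 4.98, 3.83 and 5.38 in heterozygotes and 11.2, 14.2 and 16.7 in homozygous libraries. Every heterozygous library lay below all others. *Grb10* fell in heterozygotes, with a log2 fold change of −1.15 (SE 0.21, edgeR adjusted p = 0.00087), and −0.90 without WT replicate 1, under the FC threshold. In homozygotes it was 0.43 with overlapping libraries (SE 0.19, edgeR adjusted p = 0.0672). The mutants differed by 1.58 on the log2 scale (SE 0.20, edgeR adjusted p = 2.54e-05), with homozygotes higher.

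*Cdkn1c* encodes p57, the cyclin-dependent kinase inhibitor that acts with p27 in the cell-cycle exit of lens fiber cells, and it is transcribed from the maternal copy (chromosome 7, 143458339 to 143461050, reverse strand). It was by far the most abundant member, at 269.7 ± 6.32 CPM per kb of exon in WT, higher than 99% of tested genes. Its level was 536.8 to 562.6 CPM in WT, 578.6 to 631.0 in knockouts, 764.5 to 794.5 in heterozygotes and 708.3 to 756.9 in homozygous libraries. The libraries of both mutants were above all of WT and knockouts, by less than 2-fold. Log2 fold changes were 0.50 in heterozygotes (SE 0.05, edgeR adjusted p = 3.16e-06), 0.43 in homozygotes (SE 0.05, edgeR adjusted p = 3.71e-06) and 0.12 in knockouts (SE 0.05, edgeR adjusted p = 0.196). *Gm44732*, annotated on the opposite strand over *Cdkn1c* exons, stood at 9.27 ± 1.75 CPM in WT and 15.2 ± 1.01 in homozygotes, and reads of the 2 genes cannot be told apart without strand. The genes most like *Cdkn1c* over the libraries were *Gramd3*, *Mfge8* and *Btbd17* (r = 0.987, 0.983 and 0.982).

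The other cyclin-dependent kinase inhibitors did not move together. *Cdkn1b*, which encodes p27, went from 15.8 ± 0.767 CPM in WT to 12.8 ± 0.775 in heterozygotes and 10.6 ± 0.271 in homozygotes (log2 fold changes −0.31 and −0.59, edgeR adjusted p = 0.00288 and 4.39e-06), under 2-fold. The ratio of *Cdkn1c* to *Cdkn1b* counts was 34.8 ± 2.34 in WT, 36.8 ± 4.71 in knockouts, 61.0 ± 2.83 in heterozygotes and 70.0 ± 2.82 in homozygous lenses. *Cdkn1a*, the gene of the stress-inducible inhibitor p21, rose from 0.128 ± 0.0359 CPM in WT to 1.59 ± 0.52 in heterozygotes and 11.8 ± 2 in homozygotes (log2 fold changes 3.62 and 6.52, edgeR adjusted p = 7.16e-06 and 7.92e-10). Of the 7 genes in the list 5 were tested, and *Cdkn1a* was the 1 called in each mutant, where 8.95% (homozygotes) and 3.33% (heterozygotes) of all tested genes were called. *Cdkn1a* passed the filter only through the homozygous libraries, so that call supports nothing about the list.

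*Mest*, the paternally expressed gene of a hydrolase-like membrane protein (chromosome 6, 30723547 to 30748465, forward strand), held 25.1 to 28.7 CPM in WT, 33.1 to 35.7 in knockouts, 40.6 to 52.9 in heterozygotes and 36.0 to 58.6 in homozygous libraries. Every library of the other genotypes was above WT. With WT as the base the log2 fold change was 0.75 in both mutants (SE 0.15, edgeR adjusted p = 0.00158 in heterozygotes and 0.000519 in homozygotes), under 2-fold, and 0.35 in knockouts (edgeR adjusted p = 0.221). With library size only, it was 1.26 in homozygotes and passed both thresholds. *Copg2*, which overlaps exons of *Mest* on the opposite strand, stood at 29.3 ± 2.03 CPM in WT and 28.0 ± 1.12 in homozygotes.

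Among 58 further imprinted genes, 28 were tested. In homozygous lenses *Igf2r*, *Zim1*, *Airn*, *Usp29* and *Rian* were called higher and *Peg13* lower, and in heterozygotes *Igf2r*, *Zim1* and *Usp29* were called higher. That is 6 and 3 of 28, against the backgrounds of 8.95% and 3.33%, with *Zim1* and *Usp29* past the filter only through mutant libraries. The list's median log2 fold change was 0.02 in homozygotes and 0.04 in heterozygotes, beside 0.00 for all tested genes. In knockouts 0 genes of the list were called by edgeR's quasi-likelihood test and 0 by DESeq2. At any fold 3 passed an edgeR adjusted p of 0.05, against 4.36% of all tested genes. At an unadjusted p under 0.05 there were 10, 3 higher and 7 lower. That count has no share of all tested genes to set it against, so no change is read from it. *Igf2r* encodes the receptor that takes up IGF2 and sends it to the lysosome, and mouse *Igf2r* is transcribed from the maternal copy. It rose from 63.2, 47.4 and 56.6 CPM in WT to 162.0, 147.3 and 177.2 in heterozygotes and 382.1, 358.4 and 448.0 in homozygous libraries, with log2 fold changes of 1.54 and 2.83 (edgeR adjusted p = 2.23e-07 and 1.99e-10). *Airn*, the paternal antisense RNA gene that overlaps *Igf2r* on chromosome 17, rose from 1.62 ± 0.12 to 5.31 ± 0.538 CPM in homozygotes (log2 fold change 1.72, edgeR adjusted p = 3.37e-07). *Airn* passed the filter only through the homozygous libraries and is not tested when any of them is left out. The exons of *Airn* and *Igf2r* do not overlap, but without strand its reads cannot be told apart from unspliced *Igf2r* RNA. *Peg13*, a paternally expressed noncoding RNA, fell from 34.6 ± 3.38 CPM to 15.6 ± 1.4 in homozygotes (log2 fold change −1.15, edgeR adjusted p = 1.77e-08), and it stood at 18.7 ± 0.539 CPM in heterozygotes (−0.89, edgeR adjusted p = 8.91e-07), under 2-fold. With library size only its value in homozygotes was −0.64 and it was not called, and the 8 genes of the list called with this scaling were all higher.

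Because *Igf2*, *H19*, *Grb10* and *Igf2r* all bear on insulin-like growth factor signalling, 36 genes of that axis were followed, of which 25 were tested. In homozygous lenses 8 were called higher and 1 lower, in heterozygotes 6 higher and 1 lower, and in knockouts 1 lower. The lower calls in heterozygotes and knockouts were *Grb10* and *Igf2*, which are members already counted above. Of all tested genes 6.42% were called higher and 2.53% lower in homozygotes, 2.58% and 0.746% in heterozygotes and 0.234% and 0.334% in knockouts. *Grb14* and *Igfbp3* passed the filter only through the homozygous libraries and *Igfbp2* and *Igfbp4* only through mutant ones, so their calls do not support the count. The median log2 fold change was 0.33, 0.13 and −0.04 over all 25. Of the 8 called higher in homozygotes, 4 encode secreted binding proteins, which hold IGFs outside the cell. *Igfbp7*, also tested, was not called in either mutant. *Igfbp2* went from 0.285 ± 0.142 CPM in WT and 0.27 ± 0.135 in knockouts to 8.4 ± 1.2 in heterozygotes and 104.6 ± 19.8 in homozygotes (log2 fold changes 4.89 and 8.52 in the mutants, edgeR adjusted p = 5.17e-08 and 1.32e-11). *Igfbp3* rose by 5.77 and *Igfbp4* by 3.31 on the log2 scale in homozygotes, and *Igfbp5* rose more in heterozygotes (1.88) than in homozygotes (1.27), a difference of −0.61 between the mutants (edgeR adjusted p = 0.000296). The insulin receptor adaptor gene *Grb14*, a relative of *Grb10*, rose from 0.141 ± 0.0157 to 4.76 ± 0.338 CPM in homozygotes (5.06). *Irs2* (1.26) and *Htra1* (1.09), a secreted protease gene, were also called higher there, and *Pappa*, the gene of a protease that cleaves IGF binding proteins, lower (−1.05). The call of *Pappa* was lost with library size only (−0.54) and without homozygote replicate 2 (−0.94). *Igf1r*, which encodes the signalling receptor, stood at 47.9 ± 3.3 CPM in WT, 46.0 ± 4.01 in heterozygotes and 61.3 ± 5.19 in homozygotes (log2 fold changes −0.06 and 0.35, edgeR adjusted p = 0.651 and 0.00297).

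**Figure D4:**
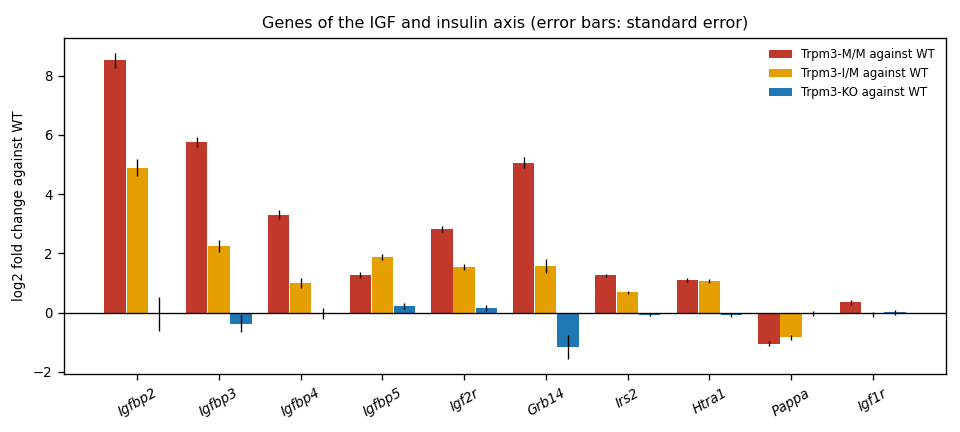
Log2 fold change against WT (vertical axis, error bars are standard errors) of 10 genes of the IGF and insulin axis in homozygotes, heterozygotes and knockouts. In homozygotes *Igfbp2* (8.52), *Igfbp3* (5.77), *Grb14* (5.06), *Igfbp4* (3.31) and *Igf2r* (2.83) stand highest, while *Pappa* is below 0 in both mutants.

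Several members are known to be expressed in mesenchyme and blood vessels, and markers of such cells moved with the mutant genotypes. Markers of vascular endothelium (8 genes) summed to 13.8 to 16.3 CPM in WT, 13.7 to 15 in knockouts, 24.7 to 30.6 in heterozygotes and 55.3 to 64.5 in homozygotes, with 7 of 8 genes above every WT library in each mutant. Markers of pericytes and fibroblasts (9 genes) summed to 14.8 to 18.9, 22.2 to 23.5, 21.3 to 31.4 and 154.5 to 238.3 CPM in the same order, with 8 of 9 above every WT library in homozygotes and 5 in heterozygotes, and *Lum* at 0 in WT. Macrophage markers (8 genes) stood at 0.416 to 0.55, 0.376 to 0.43, 0.894 to 1.06 and 10.3 to 21.3 CPM. Red blood cell markers (5 genes) stood at 1.22 to 11.9, 1.07 to 5.63, 4.71 to 12.9 and 12.4 to 14.9 CPM. The highest WT value was in replicate 2, where *Igf2* was lowest of the WT libraries. Of the genotypes, knockouts had the lowest median of these markers, 1.23 CPM, and also the lowest *Igf2*. Lens epithelium markers (6 genes, *Trpm3* among them) stood at 590.3 to 649.4, 400.4 to 412.8, 630.1 to 676.5 and 659.9 to 673.7 CPM, sums of which *Trpm3* makes up a large part. Without *Trpm3* the other 5 summed to 339.7 to 379.5, 300.6 to 316.4, 254 to 275.2 and 189.6 to 191.8 CPM, lower in every other genotype than in WT. In homozygotes *Pdgfra* and *Foxe3* were called lower, 4 of the 6 passed an adjusted p of 0.05 lower and 1 higher, and the median log2 fold change was −0.79. The part of these cells in the members' changes was not tested.

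Markers of tissues next to the lens were low, with the corneal genes *Kera*, *Krt12* and *Krt14* and the retinal genes *Slc32a1* and *Thy1* at 0 in WT. Photoreceptor (9 genes), other neural retina (7) and cornea (5) markers summed to at most 0.959 CPM in any WT, knockout or heterozygous library, and to 1.59 to 4.21, 1.32 to 2.06 and 3.66 to 6.72 CPM in homozygotes. Pigmented cell markers (6 genes, with *Rpe65* at 0 in all 12 libraries) stood at 2.84 to 3.63 CPM in the other genotypes and at 5.32 to 6.17 CPM in heterozygotes. Ciliary non-pigmented epithelium markers (5 genes) stood at 24.1 to 25.3 CPM in WT, 21.8 to 23.7 in knockouts, 17.4 to 20.6 in heterozygotes and 36.8 to 40.0 in homozygotes. *Nnat* was lowest in heterozygotes, where the pericyte and fibroblast markers were at 21.3 to 31.4 CPM. By mean CPM *H19*, *Peg3*, *Meg3*, *Dlk1*, *Plagl1*, *Grb10* and *Mest* were highest in homozygotes, where those markers were highest, with *Mest* nearly equal in heterozygotes. *Igf2* and *Cdkn1c* were highest in heterozygotes and *Nnat* in knockouts. Whether these orders are related to the markers was not tested.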

How the data were processed

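RNA from lenses of 12 pools was sequenced and, per the paper's methods, aligned and counted by the authors with DRAGEN 3.9.3-8 against Ensembl release 101 (mm10 per the labels). They deposited an estimated count per gene and library, not normalized and not pooled. Of these counts, zeros included, 88.4% were whole, and of those above 0 71.8% were whole. They were rounded for the fits, although whole counts had been assumed when the tests were chosen. The second deposited table holds the same counts for 9470 genes (largest difference 0, used only as a check of the columns) and CPM values, fold changes and p-values of the authors, which were not used.

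Samples were grouped by the genotype in their titles. Genes with at least 5 CPM in at least 3 libraries (8984) were tested with edgeR 4.0.16 (TMM factors, trimming 30% of log ratios, quasi-likelihood F-test, one fit over 12 libraries with genotype as factor, Benjamini-Hochberg adjustment over all tested genes, R 4.3.3). Called means FC ≥ 2 and FDR ≤ 0.05, the thresholds of the paper's methods. SEs were derived from the F statistic. DESeq2 1.42.0 was an alternative, beside other scalings, filters, sample sets, a replicate block and each library left out. The procedure was tested on simulated data. Levels per kb use the union of GENCODE M21 exons (GRCm38), which also gave coordinates. The kit is not described as marking strand. Members and gene lists were chosen with earlier results of these data known. Named genes were all members, listed genes called in any comparison, fixed partners or neighbours (*Cdkn1b*, *Igf1r*, *Igf2r*, *Blcap*, *Atp2a2*) and the 3 genes most like *Nnat*, *Cdkn1c* and *Peg3*; *Jag2*, *Notch3*, *Gm44732* and *Copg2* were named after their values were seen. The replicate numbers do not pair libraries (deviations of 2 of 18 same-numbered pairs correlated above 0.1). No replicate pair matched within counting noise. The labels do not say that replicates came from separate litters, so p-values measure the spread between these pools.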

Additional observations from a re-analysis of the deposited data

Results flagged for a closer look

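The effects of the heterozygous and homozygous substitution differed for 3 members, by edgeR's quasi-likelihood test of homozygotes (*Trpm3*-M/M) against heterozygotes (*Trpm3*-I/M) at FC ≥ 2 and FDR ≤ 0.05, which called 4.7% of all tested genes. *Plagl1* differed by 2.71 on the log2 scale, *Grb10* by 1.58 and *H19* by 1.39, each higher in all 3 homozygous libraries than in any heterozygous one. *Plagl1* passed the filter only through the homozygous libraries, so its call does not support the count of 3. *Grb10* was called lower than WT in heterozygotes and not called in homozygotes.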

How the results depend on the processing

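Among the called members, *Nnat*, *Peg3* and *H19* in both mutants and *Igf2* in knockouts kept their direction and their call under every alternative run. *Plagl1* in homozygotes kept its call in each run that tested it. It dropped out of the test when any homozygous library was left out, so those runs could not weaken its call. With a replicate number as a block, the members past an adjusted p of 0.05 in knockouts were 2 and not 1, and the mutants' difference for *Mest* was −0.006. The number does not pair these pools. The knockout count was also 2 with DESeq2 and with only the 2 genotypes compared, and 4 with no filter on low counts. With no filter, 8 members passed between the mutants (5 with the filter), and other imprinted genes called were 12 in homozygotes, 5 in heterozygotes, 1 in knockouts and 7 between the mutants (6, 3, 0 and 2 with the filter), while the IGF axis had 3 called in knockouts (1 with the filter). That fit tested 55 of the other imprinted genes and not 28. It also gave much smaller p-values, with an edgeR adjusted p = 1.1e-15 for *Igf2* between the mutants against 0.0536 with the filter. No share of all genes called in it is given, so its counts are not comparable with the filtered ones and do not show further changed genes. The other imprinted genes called between the mutants were 4 with library size only and 4 with a filter at 1 CPM.

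Signs turned only for differences that were not called. With library size only the mutants' difference for *Cdkn1c* was 0.233 and the knockout value of *Plagl1* 0.004. For *Mest* between the mutants the values were −0.002 with upper-quartile factors, −0.013 with a filter at 1 CPM and −0.032 with no filter. Leaving out 1 library at a time gave −0.125 to 0.078 for *Peg3*, −0.214 to 0.141 for *Plagl1* and −0.163 to 0.208 for *Grb10* in knockouts, and −0.191 to 0.169 for *Mest* between the mutants. It gave 4 to 5 members called in homozygotes, 3 to 5 in heterozygotes, 1 in knockouts and 2 to 3 between the mutants. IGF axis genes called were 6 to 9 in each mutant (9 and 7 with all libraries), 6 in homozygotes without homozygote replicate 2. At any fold it gave 1 to 2 in knockouts, and 2 without WT replicate 2. Other imprinted genes called between the mutants were 1 to 2, with 1 when any single homozygous library was left out. With library size only, *Igf2* in heterozygotes (1.043) and *Mest* in homozygotes (1.255) were called and *Grb10* in heterozygotes (−0.954) was not. The cause of these changes was not tested. *Dlk1* has too few counts in WT, knockout and heterozygous libraries for a difference between them to be detectable at this depth.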
